A study of Mus musculus with 20 samples.

Results

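The comparison described here is that of 2 primary lymphomas with the cell lines grown out of the same 2 mice. It uses 4 of the 20 RNA-seq libraries of the study, chosen by their labels: both libraries labelled as tumour, and the lymphoma line library that carries the same mouse number in its title. The question it addresses is which transcripts of a lymphoma are lost and which are gained when its cells are grown in culture.

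The study built a mouse in which an enzymatically dead Cas9 fused to transcriptional activators (dCas9a-SAM) turns on the endogenous gene that a guide RNA points to. Foetal liver progenitor cells of the genotype *Eµ-Myc/dCas9a-SAM* KI/+, which carry a *Myc* transgene under the immunoglobulin heavy-chain enhancer, were given a guide against *Bcl-2* (sgBcl-2) and transplanted into lethally irradiated female C57BL/6-Ly5.1 recipients. Lymphomas arose in these recipients, and cell lines were established from the tumour tissue in FMA medium, a DMEM-based medium with serum. All 4 libraries therefore share the genotype EuMYC/dCas9-SAM/sgBCL-2, the label IgM positive and the absence of any drug treatment, and tumour and line differ in being taken from the animal or from culture.

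The mouse of the title 14_179_IgMp (line) and 21_179_Tumour_IgMp (tumour) is called mouse A here, and that of 15_180_IgMp and 20_180_Tumour_IgMp is called mouse B. The column names of the 2 tumours in the expression table give the opposite numbers, so the titles and the table contradict each other. The titles were followed, and the leading V genes given below pair the libraries in the same way. Each state of each mouse is 1 library, each line comes from 1 mouse, and the sources used here do not say from which organ the tumour was taken, whether its B cells were purified, how long the lines were grown or which of the *Bcl-2* guides they carry. The libraries held 20053004 reads (tumour A), 24659699 (line A), 22827729 (tumour B) and 26678417 (line B). Expression is given as CPM, the reads of a gene scaled to a library of 1000000 reads, with mouse A first and mouse B second wherever a pair of values is printed. A gene with no read is listed at 0, and 3 reads, the most that a count of 0 allows, correspond to between 0.112 CPM in line B and 0.1496 CPM in tumour A. Library preparation and counting error are the only sources of error inside 1 library, and with 2 libraries against 2 an exact permutation test of a single gene cannot go below a two-sided p of 0.333.

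All 4 libraries carried the transcripts of B cells. *Cd79a*, a signal chain of the B cell receptor chosen after its values were seen, was at 1393 and 1603 CPM in the tumours and 466 and 490.0 CPM in the lines. *Ighm*, the constant region of the IgM heavy chain (chr12:113418826-113422730), was at 6209.9 and 5392 CPM in the tumours and 2711 and 2649 CPM in the lines.

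The rearranged immunoglobulin V gene is a natural tag of a B cell clone, because each B cell joins 1 V gene of its heavy chain and 1 of its light chain and passes that choice on to all its descendants. The tumour and the line paired by their titles carried the same leading V genes. This match was known when the samples were paired, so it is not an independent test of the pairing. *Ighv1-77* (chr12:115861867-115862160) held 83.8% of heavy-chain V reads in tumour A (95% Wilson interval 83.1 to 84.5) and led in line A, and *Ighv1-47* (chr12:114991108-114991401) held 90.2% in tumour B (89.7 to 90.7) and led in line B. Of the light chain, *Igkv17-127* held 83.5% of kappa V reads in tumour A and 91.0% in line A, and *Igkv8-30* held 89.9% in tumour B and 86.9% in line B. The lines had no read on the leading heavy-chain V gene of the other mouse, whereas tumour A had 35 and tumour B had 9.

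Of the heavy chain, little but the leading V genes was found in the lines. Outside the 2 leading heavy-chain V genes of each library, 13.8% of V reads remained in tumour A (1567 of 11364 reads, interval 13.2 to 14.4) and 0.749% in line A (44 of 5877, interval 0.558 to 1.00). In mouse B the same share was 3.45% in the tumour (440 of 12768, interval 3.14 to 3.78) and 0.229% in the line (25 of 10925, interval 0.155 to 0.338). At least 3 reads were found on 81 heavy-chain V genes in tumour A and on 55 in tumour B, but on 5 in each line. The kappa repertoire differed less: 12.6% of V reads in tumour A, 6.34% in line A, 7.61% in tumour B and 7.11% in line B lay outside the 2 leading genes, and the intervals of tumour B (7.29 to 7.94) and line B (6.76 to 7.46) overlapped. At least 3 reads were found on 80 kappa V genes in tumour A, 45 in line A, 70 in tumour B and 66 in line B. V genes are near-identical in sequence, so a part of such reads may belong to a neighbour, and the intervals cover counting error only. Heavy-chain reads outside the leading V genes were thus a larger share in both tumours than in their lines, and kappa reads in mouse A; their part in the other differences between tumour and line was not tested. In bulk samples, fewer cells of a type and less RNA per cell cannot be told apart.

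**Figure D1:**
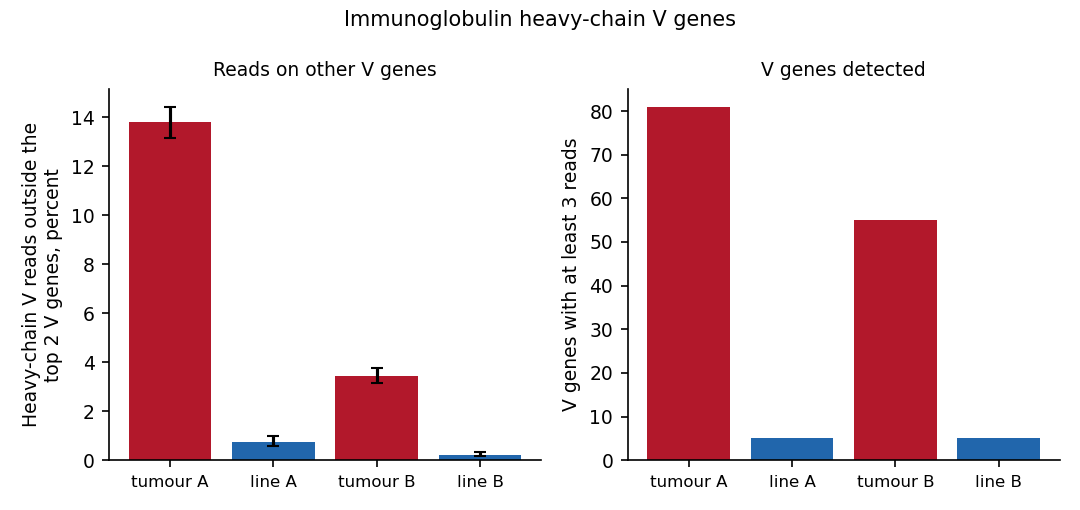
Heavy-chain V genes in the 2 tumours and their lines. Left, percent of heavy-chain V reads outside the 2 leading V genes of each library, with 95% Wilson intervals as error bars: 13.8% and 3.45% in the tumours against 0.749% and 0.229% in the lines. Right, number of heavy-chain V genes with at least 3 reads: 81 and 55 in the tumours and 5 in each line.

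Over the 12719 genes with enough reads to be tested, the tumour minus line difference in mouse A and that in mouse B had a correlation of 0.762 across genes, and 10128 genes (79.6%) differed in the same direction in both mice. Genes are not independent replicates, so this is a description. The 79.6% was not split into higher and lower. Counts of list members higher, or lower, in both mice therefore have no matching share of all tested genes beside them. In limma without a block for the mouse, 42 genes passed an adjusted p of 0.05, that is 0.33% of tested genes. Of these, 34 were higher in the tumours (0.267%) and 8 lower (0.0629%), each of them at an adjusted p of 0.0498 and so close to the threshold. An unadjusted p under 0.05 was reached by 3295 genes. With the mouse as a replicate block, which compares each tumour with the line of the same animal, 3598 genes passed (28.3%), 1687 higher in the tumours (13.3%) and 1911 lower (15.0%), and all of the 42 were among them. edgeR on the read counts called no gene without the block (3184 at an unadjusted p under 0.05) and 2990 with it (23.5%), of which 2976 were also called by limma with the block. In what follows, "called" means an adjusted p under 0.05 in limma without the block, and "called with the block" the same with it. The block fit has 1 residual degree of freedom. The median log2 difference over all tested genes was 0.01.

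**Figure D2:**
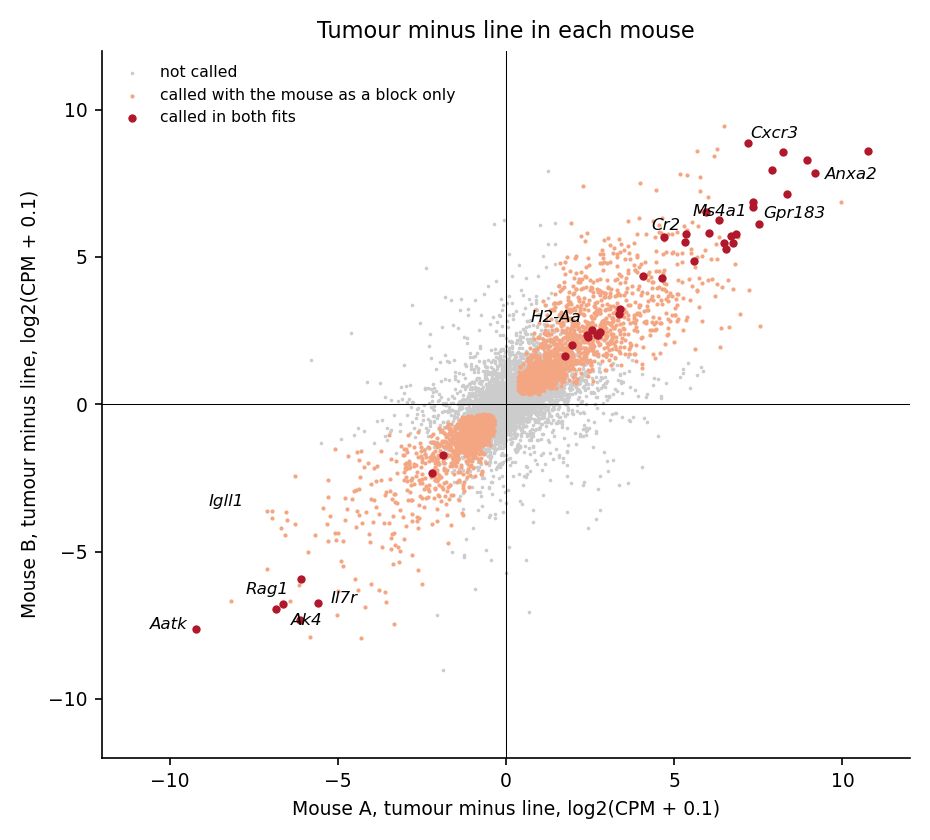
Tumour minus line difference of each tested gene in mouse A (horizontal) and mouse B (vertical), on the log2(CPM + 0.1) scale. Colours mark genes called without the block and those called only with it; the cloud runs along the diagonal, with 79.6% of the 12719 genes having the same direction in both mice.

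The called genes with the largest differences in favour of the tumours had few or no reads in the lines, except that *Ms4a1* stayed well above a count of 0. *Ms4a1* (chr19:11249679-11266149) encodes CD20, the surface protein of mature B cells that rituximab binds. It stood at 799 and 529 CPM in the tumours and 4.06 and 7.46 CPM in the lines, a 115-fold difference of means (log2 difference 6.81 ± 0.37, SE, n = 2 mice, adjusted p = 0.0498, with the block 0.00421). The 4 lymphoma lines of other mice had 0 to 0.0781 CPM. *Cxcr3* (chrX:101731535-101734147), a chemokine receptor that guides lymphocytes to inflamed tissue, was at 30.2 and 38.4 CPM in the tumours and had no read in either line (adjusted p = 0.0498, with the block 0.00421). *Gimap4* and *Gimap8* encode small GTPases of lymphocyte survival and lie close together on chromosome 6. They were at 49.1 and 56.5 CPM and 32.7 and 14.3 CPM in the tumours, with at most 2 reads in a line. The 2 tumours and the 2 lines did not overlap for any of these genes, which were picked among those called with the largest differences. The share of all tested genes without overlap was not counted. For each of these genes the lines of other mice lay with the lines.

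Other called genes were *Anxa2*, encoding the membrane-binding protein annexin A2, at 257 and 181 CPM in the tumours and 0.324 and 0.675 CPM in the lines. *Tppp3*, a tubulin-binding protein, was at 64.1 and 137 CPM and 0.324 and 0.187 CPM. *Chit1*, a chitinase best known from macrophages, stood at 249.99 and 68.5 CPM in the tumours, with 1 read in line A and 2 in line B. *Sh2d6*, an adaptor with an SH2 domain, was at 24.0 and 44.6 CPM in the tumours, again with at most 2 reads in a line. *Ms4a4c*, a relative of *Ms4a1* in the same cluster on chromosome 19, was at 30.0 and 22.3 CPM in the tumours and 0.0811 and 0.112 CPM in the lines. For all 5 the adjusted p was 0.0498, and 0.00421 with the block.

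MHC class II molecules present peptides to CD4 T cells and are a hallmark of mature B cells. Their chains, the invariant chain and the peptide loaders are switched on together by the co-activator CIITA, which acts through an upstream module that ends in a reversed CCAAT box called the Y box. The group was higher in both tumours as a whole. All 10 members tested were higher in both mice, 4 were called and all 10 were called with the block (background 0.267% and 13.3%), with a median log2 difference of 2.58, 2.86 in mouse A and 2.41 in mouse B. Summed over the 10, the tumours had 7388 and 8491 CPM, the lines 998 and 1593 CPM and the 4 lines of other mice 15.5 to 716 CPM.

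The sequences just upstream of 4 of these genes are shown because the genes move together and share the Y box. They end at the base before the RefSeq transcription start of GRCm38.p6, are written 5′ to 3′ on the strand of the gene, and have TGATTGG in capitals; they come from chr17:34287824-34287933 (minus strand), chr17:34305757-34305866 (plus strand), chr17:34145139-34145248 (plus strand) and chr17:34092269-34092378 (plus strand).
H2-Aa: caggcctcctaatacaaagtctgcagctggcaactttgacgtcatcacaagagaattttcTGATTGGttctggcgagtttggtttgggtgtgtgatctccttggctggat
H2-Eb1: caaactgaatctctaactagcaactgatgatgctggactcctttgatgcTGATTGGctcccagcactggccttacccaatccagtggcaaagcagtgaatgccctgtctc
H2-DMb2: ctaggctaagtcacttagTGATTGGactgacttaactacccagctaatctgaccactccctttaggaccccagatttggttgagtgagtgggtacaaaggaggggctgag
H2-Oa: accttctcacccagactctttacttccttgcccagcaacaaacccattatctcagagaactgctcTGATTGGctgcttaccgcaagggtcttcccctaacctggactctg
TGATTGG was searched on both strands in the 250 bases upstream of the start, and was found in 6 of the 7 members of the list that had a promoter sequence, against 7.65% of 27025 mouse promoters. It began 50, 61, 92 and 45 bases upstream of the start in the 4 shown, in the order of printing. A match is a description of the letters and does not show that a factor binds there.

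*H2-Aa* (chr17:34282744-34287823) and *H2-Ab1*, the chains of I-A, were at 952 and 919 CPM and 1021 and 1266 CPM in the tumours and at 137.8 and 176 CPM and 165 and 219.5 CPM in the lines, both 5.95-fold higher in the tumours and both called. *H2-Eb1*, the beta chain of I-E, was at 1080.2 and 1211 CPM against 148 and 218 CPM and was called as well. *H2-DMa* and *H2-DMb2* form H2-DM, which loads peptides onto class II. *H2-DMa* was at 128 and 133 CPM against 11.5 and 13.8 CPM (log2 difference 3.31 ± 0.18, adjusted p = 0.0498). *H2-DMb2*, at 167 and 232 CPM against 3.16 and 7.65 CPM, was just short of the threshold (adjusted p = 0.0510, with the block 0.00421). With the spread pooled over 8 lymphoma libraries none of *H2-Aa*, *H2-Ab1*, *H2-Eb1* and *H2-DMa* was called (adjusted p = 0.531, 0.304, 0.550 and 0.296), nor against all 6 lymphoma lines (0.138, 0.133, 0.145 and 0.0726). *Cd74*, the invariant chain, was at 3509 and 4232 CPM in the tumours and 435 and 808 CPM in the lines (adjusted p = 0.0652, with the block 0.00610). *Ciita* itself, named after its values were seen, was at 152 and 201.6 CPM in the tumours, 40.8 and 72.6 CPM in the lines and 0 to 26.8 CPM in the lines of other mice (adjusted p = 0.0807, with the block 0.00660). Tumour and line did not overlap for any of these genes, which follows in part from how they were chosen. The lines of other mice were lower than both lines for each of these genes.

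Genes of MHC class I, which shows peptides of the cell's own proteins to CD8 T cells, differed by less. All 12 were higher in both tumours than in the lines, 1 was called and 11 were called with the block (background 0.267% and 13.3%), and the median log2 difference was 0.82. The called gene was *H2-T23*, encoding the non-classical molecule Qa-1, at 173 and 169 CPM against 30.3 and 33.7 CPM (5.35-fold, adjusted p = 0.0498). *H2-K1*, a classical heavy chain, was at 924 and 595 CPM against 346 and 246 CPM (with the block, adjusted p = 0.00724). *Tap1*, a chain of the peptide transporter, was at 181 and 157 CPM against 64.1 and 54.1 CPM (with the block, adjusted p = 0.00632). Class I heavy chains are close paralogs and reads may be split between them.

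Type I and type II interferons switch on a set of antiviral genes through a complex with the factor IRF9, which binds an element of paired TTTC repeats, the interferon-stimulated response element. Of 34 genes listed, 29 had enough reads to be tested. All 29 were higher in both mice; none was called, 23 were called with the block (background 13.3%), and the median log2 difference was 2.27. Their sum was 653 and 597 CPM in the tumours, 239.7 and 257 CPM in the lines and 175 to 228 CPM in the lines of other mice. Upstream sequences of 4 members called with the block are shown for the element, searched as TTTC, any 2 bases and TTTC on both strands. It is in capitals, and reads GAAA, 2 bases and GAAA where it lies on the other strand. They come from chr5:120907526-120907655 (minus strand), chr5:120777660-120777789 (minus strand), chr3:142559914-142560043 (plus strand) and chr7:104465194-104465323 (minus strand) of GRCm38.p6.
Oas1a: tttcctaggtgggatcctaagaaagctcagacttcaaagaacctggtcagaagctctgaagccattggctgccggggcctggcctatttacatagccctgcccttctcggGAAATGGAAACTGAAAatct
Oas3: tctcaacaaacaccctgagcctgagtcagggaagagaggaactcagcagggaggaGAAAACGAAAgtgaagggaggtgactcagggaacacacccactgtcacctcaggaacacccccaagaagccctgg
Gbp3: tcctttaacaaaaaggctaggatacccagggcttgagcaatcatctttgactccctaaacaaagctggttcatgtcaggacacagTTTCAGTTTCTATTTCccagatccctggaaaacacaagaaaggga
Trim30a: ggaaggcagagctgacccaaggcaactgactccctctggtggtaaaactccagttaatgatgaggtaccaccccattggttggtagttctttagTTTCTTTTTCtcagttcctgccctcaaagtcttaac
In *Oas1a* and *Gbp3* a pair of matches overlap and form 1 run of capitals. The element occurred within 250 bases upstream in 14 of the 24 listed genes with a promoter sequence and in 3.04% of all 27025 promoters.

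*Mx1* and 3 *Oas* genes, antiviral effectors of this list, were near 0 in culture. *Mx1*, which blocks incoming viral particles, was at 7.43 and 7.67 CPM in the tumours and had 0 reads in line A and 2 in line B (adjusted p = 0.0533, with the block 0.00671). *Oas2*, *Oas3* and *Oas1a* make the second messenger of RNase L. *Oas2* was at 11.0 and 14.1 CPM against 0.324 and 0.0750 CPM and *Oas3* at 3.29 and 7.97 CPM with at most 1 read in a line. *Oas1a* was at 9.67 and 3.59 CPM against 0.203 and 0 CPM. With the block their adjusted p-values were 0.00840, 0.00795 and 0.00767. *Gbp3*, a GTPase of defence inside the cell, was at 37.2 and 22.998 CPM against 8.76 and 1.61 CPM. *Trim30a*, a ubiquitin ligase, was at 40.5 and 36.7 CPM against 19.1 and 15.3 CPM. Both were chosen with the sequences.

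B cells find lymph node and spleen niches through adhesion molecules and G protein-coupled receptors, and keep them under the control of the transcription factor KLF2. These homing genes had a median log2 difference of 2.95 over 16 tested genes, 2.32 in mouse A and 3.50 in mouse B, with 2 called and 11 called with the block (background 0.267% and 13.3%), and none called lower. *Gpr183*, which steers B cells to the outer follicle, was at 23.2 and 20.9 CPM in the tumours and had 1 read in line A and 2 in line B (adjusted p = 0.0498). *Cxcr5*, the receptor for the follicle chemokine, was at 65.6 and 41.7 CPM against 1.09 and 0.525 CPM (66.2-fold, adjusted p = 0.0513, with the block 0.00421). *Ccr6* was at 4.04 and 22.7 CPM in the tumours and had no read in either line.

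*Itgb7*, an integrin chain that with alpha 4 binds gut vessels, was at 286 and 78.7 CPM in the tumours and 4.91 and 0.412 CPM in the lines. Its partner *Itga4* was at 278 and 213.6 CPM and 336 and 168 CPM, with overlapping groups. *Klf2* was at 308 and 162 CPM against 55.4 and 25.3 CPM (adjusted p = 0.0895, with the block 0.00421). Its target gene *S1pr1* (the exit receptor for sphingosine 1-phosphate), chosen after its values were seen, was at 144 and 91.2 CPM in the tumours and 28.9 and 3.86 CPM in the lines. With the block, the adjusted p was 0.00421 for *Itgb7* and 0.0165 for *S1pr1*. It was 0.971 for *Itga4*. *Cxcr4* and *Cd44*, which bone marrow B cells also use, were not called in either fit.

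**Figure D3:**
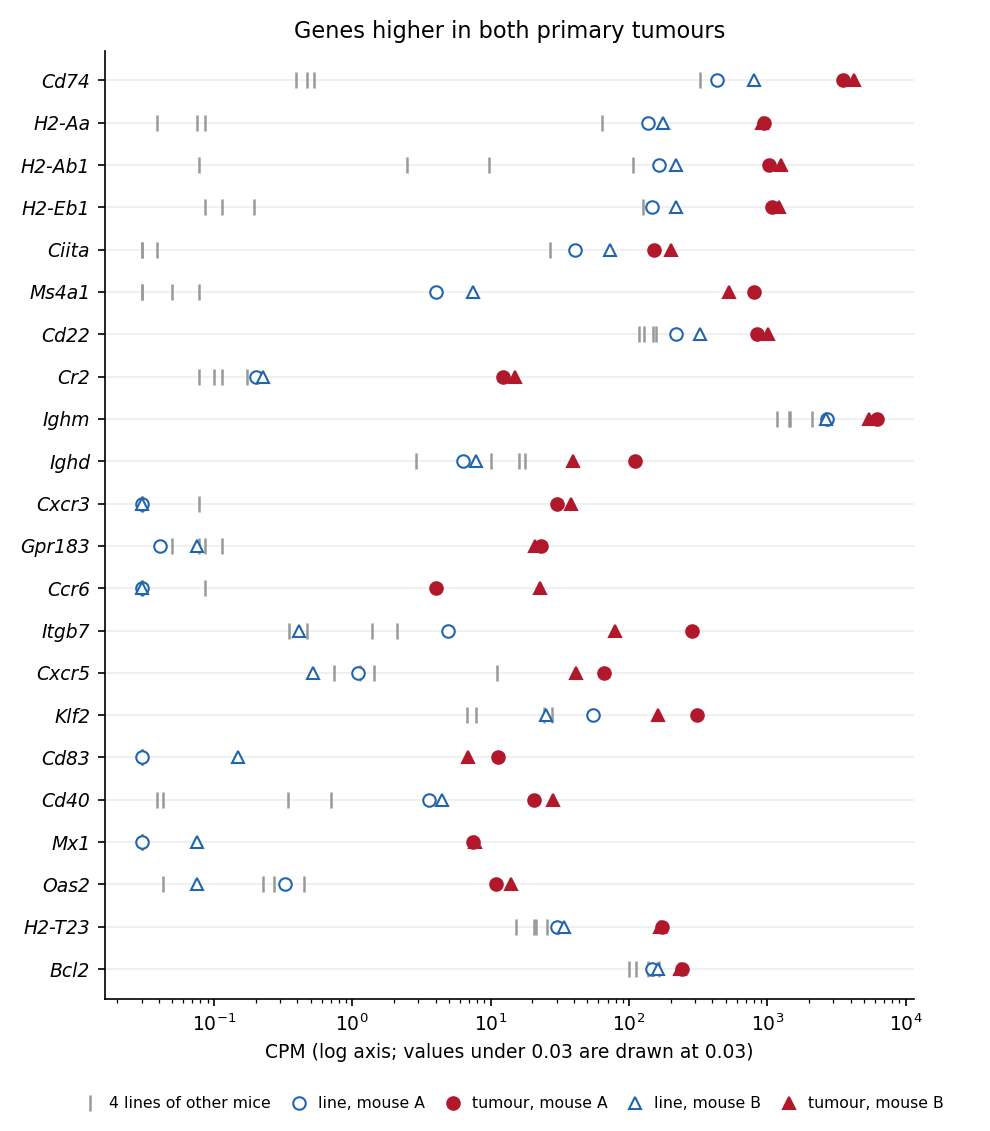
CPM of genes higher in both primary tumours, on a log axis where values under 0.03 are drawn at 0.03. Filled symbols are the tumours, open symbols the lines of the same mice (circle mouse A, triangle mouse B) and grey ticks the 4 lines of other mice; for each gene shown the 2 filled symbols lie to the right of both open ones.

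The B cell receptor is the surface immunoglobulin with the signal chains CD79A and CD79B, tuned by co-receptors such as CD21 and CD22. Of 25 genes of the receptor and its proximal signalling, 1 was called higher, 18 were called higher with the block and 3 lower (background 13.3% and 15.0%), at a median log2 difference of 1.09. The called gene was *Cr2*, encoding the complement receptor CD21 of mature follicular and marginal zone B cells, at 12.4 and 14.9 CPM against 0.203 and 0.225 CPM (63.8-fold, adjusted p = 0.0498). *Cd22*, an inhibitory co-receptor, was at 836 and 1009 CPM against 220.3 and 326 CPM. *Ighm*, given above, was 2.16-fold higher in the tumours (adjusted p = 0.108, with the block 0.0268). *Ighd*, which mature naive B cells splice from the same transcript as *Ighm*, differed by more, 10.6-fold, at 111 and 39.3 CPM against 6.37 and 7.80 CPM (with the block, adjusted p = 0.0132). *Ighd* was chosen after its values were seen.

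The lambda light-chain constant genes *Iglc1* and *Iglc3* were at 107 and 327 CPM and 222 and 393 CPM in the tumours and at 1.5004 and 17.3 CPM and 1.87 and 25.9 CPM in the lines. *Igkc*, the kappa constant gene, was at 1971 and 1472 CPM against 604 and 724 CPM. *Ighg2b*, the constant region of IgG2b that a switched B cell uses, stood at 367 CPM in tumour B, 3.54 CPM in tumour A, 1.499 CPM in line B and 0 in line A. *Jchain*, which joins secreted immunoglobulin, was at 9.72 and 1.80 CPM in the tumours with no read in the lines. Both stand in a list of 12 plasma cell genes, of which 10 were tested, none was called, and 6 were called higher and 2 lower with the block (background 13.3% and 15.0%). The 12 summed to 544 and 777 CPM in the tumours and 589 and 610.3 CPM in the lines, lower in the tumour in mouse A and higher in mouse B. Lambda chains and switched constant regions are usually carried by B cells other than those of an IgM kappa clone, and in each mouse these genes, like the share of heavy-chain V reads outside the leading genes, were higher in the tumour than in the line. Between the mice they ran the other way: that share was higher in tumour A (13.8% against 3.45%) and line A (0.749% against 0.229%), whereas *Iglc1*, *Iglc3* and *Ighg2b* were higher in tumour B and line B. Their part was not tested.

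NF-kB subunits and the genes that answer to them had a median log2 difference of 0.80 over 18 tested genes, with none called, 8 called higher with the block and none lower (background 13.3% and 15.0%). The largest differences included surface molecules of activated B cells. *Cd83* was at 11.2 and 6.88 CPM in the tumours with 0 reads in line A and 4 in line B. *Cd40*, the receptor for T cell help, was at 20.7 and 28.0 CPM against 3.57 and 4.46 CPM (with the block, adjusted p = 0.00828). *Traf1* was at 4.59 and 5.74 CPM against 0.0406 and 0.600 CPM. The subunits *Nfkb1* and *Rela* were at 131 and 97.7 CPM and 74.3 and 67.4 CPM in the tumours and 109.7 and 92.9 CPM and 65.7 and 70.2 CPM in the lines, and neither was called in either fit. Of 19 immediate early genes, 6 were called higher with the block and 2 lower, the latter a smaller share than the 15.0% of all tested genes called lower. *Klf2* and *Myadm* (273 and 175 CPM against 21.8 and 8.70 CPM) were among the 6. *Fosb* (8.08 and 12.003 CPM against 47.5 and 22.9 CPM) and *Klf4* (11.2 and 15.3 CPM against 41.1 and 27.7 CPM) were the 2.

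*Bcl2* (chr1:106538176-106714290), the gene that the guide activates and the inhibitor of apoptosis that the model is built on, was at 244 and 235 CPM in the tumours and 148 and 163 CPM in the lines, 1.54-fold higher in the tumours (log2 difference 0.57 ± 0.14, SE, n = 2 mice). It was not called (adjusted p = 0.103) and was called with the block (adjusted p = 0.0258). Both lines lay within the range of the 4 lines of other mice, 99.4 to 165 CPM. The BCL-2 family, which decides on cell death at the mitochondria, *Bcl2* included, had a median log2 difference of 0.07 over 15 tested genes, 0.26 in mouse A and -0.07 in mouse B, and 2 were called higher with the block, the same share as the 13.3% of all tested genes. *Bcl2l1* (BCL-XL) was at 9.23 and 12.2 CPM against 10.5 and 19.7 CPM and *Mcl1* at 272 and 210.2 CPM against 215 and 227 CPM. *Bcl2l11* (BIM, which sets off apoptosis) was at 108 and 69.8 CPM against 86.2 and 86.5 CPM. Tumours and lines overlapped for all 3, and none was called in either fit. The BH3-only genes *Bmf* and *Bbc3* (PUMA) had unlike values in the mice. *Bmf* was at 94.2 and 20.0 CPM in tumour and line of mouse A and at 36.8 and 30.8 CPM in mouse B. *Bbc3* was at 36.3 and 35.3 CPM in mouse A and at 6.92 and 53.9 CPM in mouse B. *Bcl2a1b*, one of several near-identical A1 genes and the second member called with the block, was at 0.848 and 1.23 CPM in the tumours with no read in the lines.

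Genes of B cell precursors were higher in the lines than in the tumours of the same mice. Before a B cell has a light chain it shows its heavy chain with a surrogate light chain (*Vpreb1*, *Igll1*), cuts its V genes with RAG1 and RAG2, and grows on interleukin 7. Of 10 tested genes of this kind, 9 were lower in both tumours than in the lines, 1 was called lower and 7 with the block (background 0.0629% and 15.0%), at a median log2 difference of -4.81. *Il7r* (chr15:9506159-9529941), the receptor chain for interleukin 7, was at 2.99 and 1.14 CPM in the tumours and 142 and 132 CPM in the lines, 66.3-fold higher in culture (log2 difference -6.18 ± 0.52, SE, n = 2 mice, adjusted p = 0.0498, with the block 0.00421). *Rag1* was at 0.648 and 0.263 CPM against 98.1 and 17.3 CPM and *Rag2*, its neighbour on chromosome 2, at 0.1496 and 0.394 CPM against 29.4 and 6.93 CPM (adjusted p = 0.0711 and 0.0751, with the block 0.00610 and 0.0151).

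*Igll1* and *Vpreb1* separated by mouse as well as by state. *Igll1* was at 0.499 CPM in tumour A and 78.6 CPM in line A, and at 31.3 CPM in tumour B and 377 CPM in line B (adjusted p = 0.200, with the block 0.0153). *Vpreb1*, chosen after its values were seen, ran from 0.399 to 43.2 CPM in mouse A and from 13.0 to 195 CPM in mouse B. The lines of other mice had 0.986 to 50.8 CPM of *Il7r*, 0 to 11.7 CPM of *Rag1* and 8.52 to 225 CPM of *Igll1*. For *Rag1* and *Il7r* the 2 lines described here lay above all 4 of them and the tumours at or near their lower end. Summed over the 12 genes of the list, the tumours had 384 and 458 CPM and their lines 883 and 1396 CPM. Of the lines of other mice, those labelled IgM positive had 1189 and 1481 CPM. Those labelled IgM negative had 205 and 240 CPM, below both tumours.

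Of 12 tested regulators of the germinal centre and of plasma cells, none was called, and 3 were called higher and 2 lower with the block (background 13.3% and 15.0%, so that the lower calls were near it), at a median log2 difference of 0.41. The 2 lower were *Bach2* and *Irf4*. *Bach2*, a repressor that holds B cells back from becoming plasma cells, was at 82.9 and 118 CPM in the tumours and 245 and 461 CPM in the lines (3.52-fold higher in culture). *Irf4*, which acts in light-chain rearrangement and later in plasma cells, was at 72.7 and 98.1 CPM against 197 and 333 CPM (3.10-fold). *Irf8* went the other way, at 358 and 378 CPM against 58.0 and 163 CPM. All 3 were called with the block only (adjusted p = 0.00610, 0.00625 and 0.0197). *Sdc1*, encoding the heparan sulphate proteoglycan CD138 of plasma cells and precursor B cells, was at 1.75 and 5.34 CPM in the tumours and 38.2 and 39.8 CPM in the lines (with the block, adjusted p = 0.0101). *Cd93*, a marker of immature B cells chosen after its values were seen, was at 79.2 and 123 CPM against 259.6 and 296 CPM (with the block, adjusted p = 0.00847).

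Further genes called higher in the lines belonged to none of the lists. *Aatk*, a kinase of neurons and other cells, had no read in either tumour and was at 56.9 and 19.8 CPM in the lines. *Insm1*, a zinc-finger factor of neuroendocrine cells, was at 0.0997 and 0.219 CPM against 21.6 and 39.3 CPM. The receptors *Gpr63* and *Adgrg1* were at 9.81 and 16.1 CPM and 12.9 and 16.5 CPM in the lines with at most 4 reads in a tumour. *Arhgap21*, a GTPase-activating protein, was at 26.9 and 24.4 CPM against 117 and 122 CPM. *Reln*, a secreted glycoprotein best known from brain development, was at 135 and 155 CPM against 473 and 506 CPM. *Rbm24* (41.4 and 45.7 CPM in the lines, at most 8 reads in a tumour) and *Gm2808* (58.6 and 59.2 CPM against 162 and 179.5 CPM) came next and were called with the block only. Their levels in the 4 lines of other mice varied. *Reln* was at 0.149 to 95.9 CPM, *Arhgap21* at 0.0431 to 123 CPM and *Aatk* at 0 to 3.29 CPM there.

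Cholesterol is made from acetyl-CoA by the mevalonate pathway, whose genes are switched on together by SREBP2 when membranes are short of sterol. At their promoters SREBP2 works with NF-Y, which binds the CCAAT box. These genes were higher in both lines. Of 26 tested genes, none was called, 18 were called lower in the tumours with the block (background 15.0%) and none higher, and 20 were lower in both tumours, at a median log2 difference of -1.19 (-1.12 in mouse A and -1.23 in mouse B). Their sum was 698 and 915 CPM in the tumours, 1441 and 2326 CPM in the lines and 2175 to 2589 CPM in the 4 lines of other mice.

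Upstream sequences of 3 enzymes of the pathway are printed for the CCAAT box, in capitals as ATTGG or, on the other strand, CCAAT. They come from chr13:8885486-8885605 (plus strand), chr13:119690231-119690350 (plus strand) and chr5:4104698-4104817 (minus strand) of GRCm38.p6.
Idi1: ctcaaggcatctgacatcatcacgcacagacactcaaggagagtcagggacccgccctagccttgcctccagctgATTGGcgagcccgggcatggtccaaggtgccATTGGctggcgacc
Hmgcs1: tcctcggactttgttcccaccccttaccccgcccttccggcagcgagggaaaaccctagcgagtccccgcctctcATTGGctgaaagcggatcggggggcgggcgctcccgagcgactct
Cyp51: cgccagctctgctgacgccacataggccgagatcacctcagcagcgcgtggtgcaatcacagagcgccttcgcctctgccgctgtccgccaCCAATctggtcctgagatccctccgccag
ATTGG lay within 250 bases upstream, on either strand, in 16 of the 18 listed genes with a promoter sequence and in 34.5% of all promoters; it is contained in the longer TGATTGG searched above. TCACNCCAC, one form of the sterol regulatory element, was found in 1 of the 18, *Hmgcs1*, and in 1.04% of all promoters; other forms of the element were not searched.

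*Idi1*, an isomerase early in the pathway, was at 15.2 and 35.8 CPM in the tumours and 64.7 and 167 CPM in the lines (log2 difference -2.20 ± 0.61, SE, n = 2 mice, adjusted p = 0.122). *Sqle*, which oxidises squalene, was at 22.3 and 29.1 CPM against 86.2 and 111 CPM. *Insig1*, which holds SREBP2 in the endoplasmic reticulum when sterol is plentiful, was at 25.8 and 39.0 CPM against 102 and 180.3 CPM. With the block their adjusted p-values were 0.00421, 0.00540 and 0.00421. The 3 genes whose sequences are shown had the same direction in both mice, with *Hmgcs1* at 29.2 and 37.8 CPM against 84.3 and 147 CPM and *Cyp51* at 27.0 and 40.9 CPM against 76.5 and 147 CPM. In each of these genes both lines lay above both tumours, which follows in part from how the genes were chosen.

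Of 14 genes of fatty acid synthesis, 8 were called lower in the tumours with the block and 1 higher (background 15.0% and 13.3%). *Elovl6*, an elongase, was at 29.4 and 60.8 CPM against 158 and 231 CPM. *Scd2*, a desaturase, was at 403 and 314 CPM against 655 and 1191 CPM. *Fads2*, which desaturates polyunsaturated chains, was at 0.0997 and 1.91 CPM in tumour and line of mouse A and at 4.29 and 40.1 CPM in mouse B. The gene that went the other way was *Acacb*, the acetyl-CoA carboxylase that restrains fat burning, at 74.8 and 63.7 CPM in the tumours and 7.62 and 1.499 CPM in the lines (with the block, adjusted p = 0.0110).

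**Figure D4:**
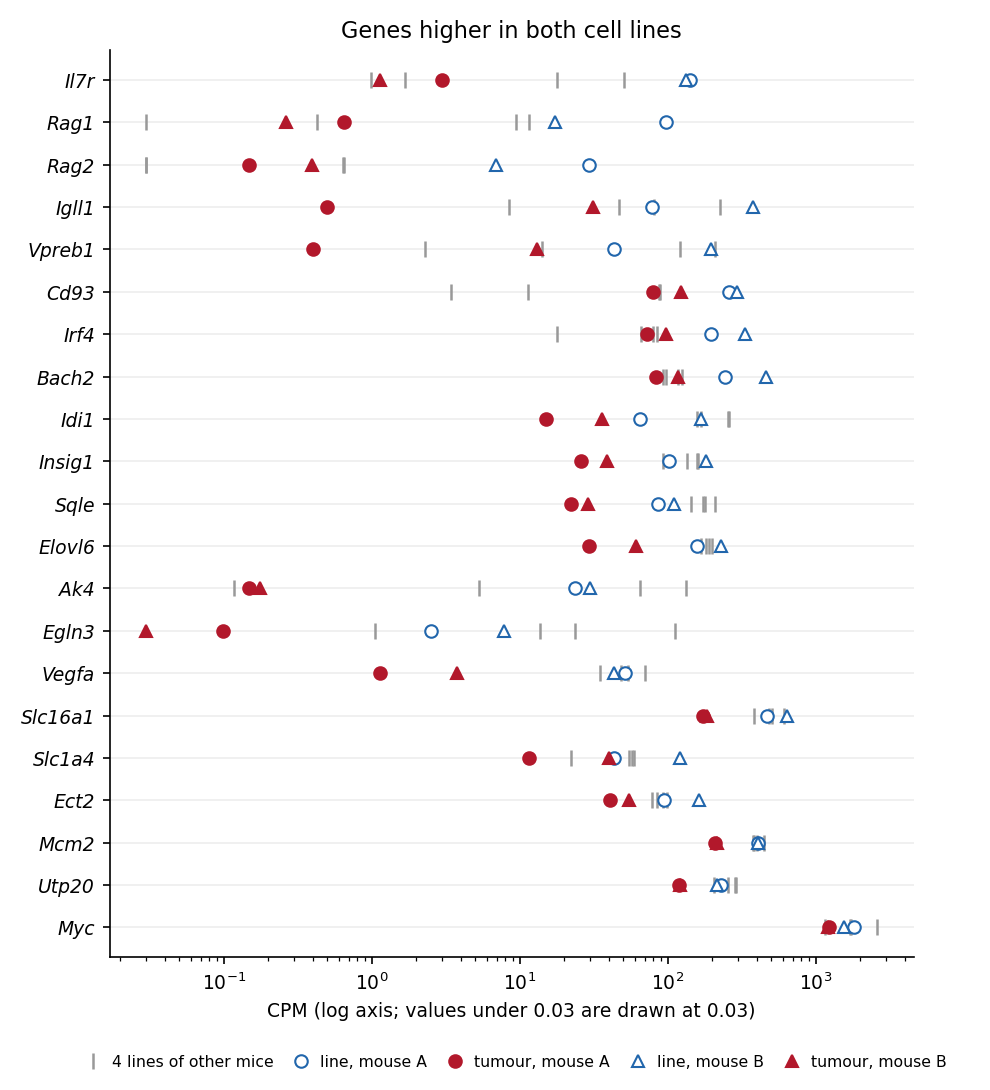
CPM of genes higher in both cell lines, on a log axis where values under 0.03 are drawn at 0.03. Filled symbols are the tumours, open symbols the lines of the same mice (circle mouse A, triangle mouse B) and grey ticks the 4 lines of other mice; for each gene shown both open symbols lie to the right of the filled symbol of the same mouse.

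Of 16 tested genes that the hypoxia factor HIF1 switches on, 1 was called higher in the tumours (*Anxa2*, given above) and 1 lower. With the block 9 were called lower and 2 higher, against 15.0% and 13.3% of all tested genes, so that the higher calls were near the background, at a median log2 difference of -0.76. *Ak4*, a mitochondrial adenylate kinase, was at 0.1496 and 0.175 CPM in the tumours and 23.6 and 30.0 CPM in the lines (adjusted p = 0.0498, with the block 0.00421). *Vegfa*, the growth factor of vessels, was at 1.15 and 3.77 CPM against 51.3 and 43.3 CPM (19.2-fold higher in culture, adjusted p with the block = 0.00946). *Egln3*, an oxygen sensor, was at 0.0997 and 0 CPM against 2.51 and 7.83 CPM (with the block, adjusted p = 0.0152). *Ankrd37* was the other gene called higher in the tumours with the block, at 28.1 and 64.2 CPM against 12.5 and 13.6 CPM. The lines of other mice were at 34.7 to 70.1 CPM of *Vegfa*, well above both tumours, whereas their *Ak4* ran from 0.117 to 133 CPM.

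The glycolysis list had a different median in the mice, -0.79 in mouse A and 0.05 in mouse B, a difference that was not tested. None of its 20 genes was called; with the block 1 was called higher in the tumours and 4 lower, near or below the 13.3% and 15.0% of all tested genes. *Slc16a1*, the lactate carrier MCT1, was at 173 and 185 CPM in the tumours against 465 and 635 CPM in the lines. *Hk2*, the first enzyme, was at 31.8 and 40.0 CPM against 112 and 95.5 CPM (with the block, adjusted p = 0.00625 and 0.0105). The gene called higher with the block was *Eno3*, the muscle enolase, at 44.7 and 34.3 CPM against 22.3 and 17.3 CPM. Genes that ATF4 switches on when amino acids run short had a median of -0.66, with 11 of 25 called lower in the tumours with the block (background 15.0%) and none higher. *Slc1a4*, a carrier of neutral amino acids, was at 11.6 and 40.4 CPM against 43.4 and 121 CPM. *Cth*, which makes cysteine, was at 2.94 and 4.47 CPM against 13.3 and 25.0 CPM, and *Asns*, which makes asparagine, at 57.7 and 39.1 CPM against 108 and 68.6 CPM.

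Genes of dividing cells were moderately higher in the lines. For scale, 79.6% of all tested genes had the same direction in both mice, higher or lower. Of 30 G2/M genes, 29 were lower in both tumours than in the lines, none was called and 18 were called lower with the block (background 15.0%), at a median log2 difference of -0.61. *Ect2*, which starts the cleavage of the cell, was at 40.6 and 54.7 CPM in the tumours and 94.3 and 162 CPM in the lines. *Hmmr*, a spindle protein, was at 68.1 and 66.8 CPM against 149 and 151 CPM (with the block, adjusted p = 0.00769 and 0.00772). *Mki67*, the proliferation marker, chosen after its values were seen, was at 1139 and 996 CPM against 1428 and 1764 CPM and was not called in either fit (adjusted p = 0.162, with the block 0.0576). Of 30 replication licensing genes, 28 were lower in both tumours and 15 were called lower with the block (background 15.0%), with a median of -0.53. *Mcm2*, a subunit of the replicative helicase, was at 208 and 215 CPM against 409.6 and 407 CPM and *Pola1*, of the primase complex, at 59.8 and 66.8 CPM against 136 and 128 CPM.

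*Myc* (chr15:61985341-61990361), the oncogene of the model, was at 1229.9 and 1214 CPM in the tumours and 1801 and 1553 CPM in the lines (log2 difference -0.50 ± 0.21, SE, n = 2 mice). It was not called (adjusted p = 0.227, with the block 0.0762), and reads of the transgene and of the endogenous gene are not told apart. Genes of ribosome biogenesis, many of which MYC binds, had a median of -0.28. Of 35, 26 were lower and 3 higher in both tumours. The same direction in both mice, either way, was found for 79.6% of all tested genes. With the block 9 of the 35 were called lower (background 15.0%). *Utp20* was at 119 and 120.5 CPM against 228 and 214.5 CPM and *Ddx21* at 435 and 462 CPM against 711 and 789 CPM. Of 44 ribosomal protein genes, 38 were higher in both tumours and the median was 0.37, but only 4 were called higher with the block, a smaller share than the 13.3% of all tested genes.

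Transcripts of the mitochondrial genome took 89594 and 77070.3 CPM in the tumours and 65140.3 and 51065 CPM in the lines, with a median log2 difference of 0.43 over 13 genes, of which 10 were higher in both tumours and none was called in either fit. The 4 lines of other mice had 57732 to 69822 CPM. The nuclear genes of the respiratory chain had a median of 0.14, with 1 of 46 called higher and 1 lower with the block, below the background of 13.3% and 15.0%. Removing immunoglobulin and mitochondrial genes before scaling left 49 called genes without the block and 3713 with it, close to the 42 and 3598 above.

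**Figure D5:**
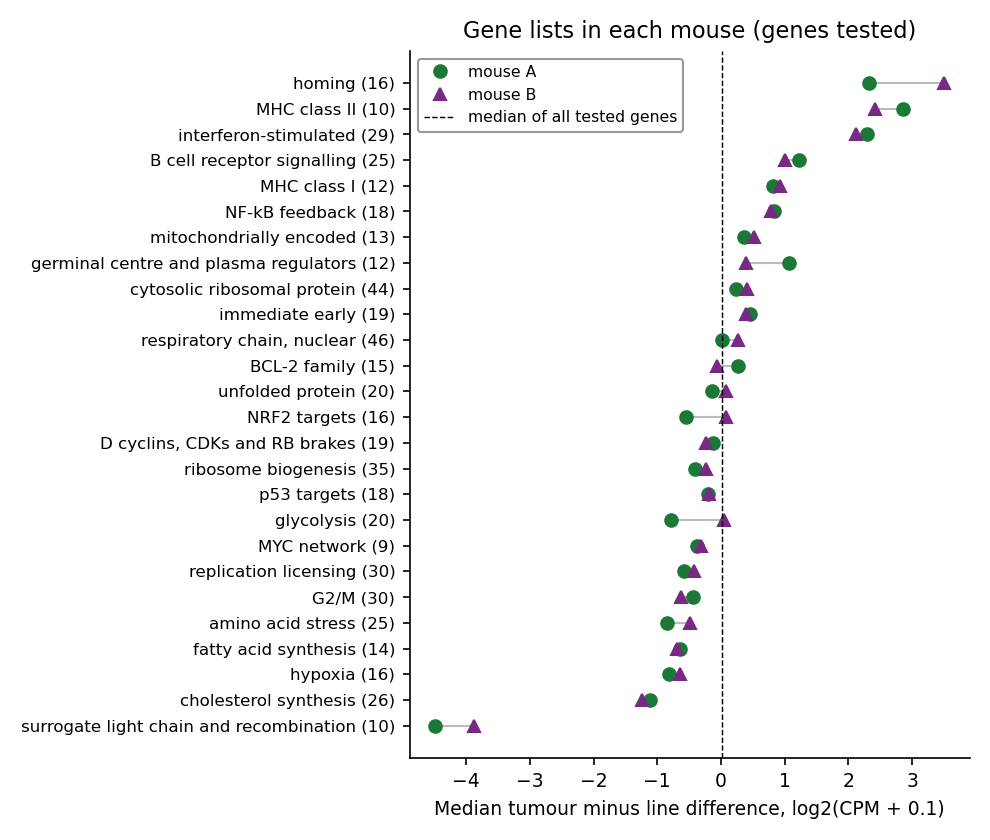
Median tumour minus line difference of 26 gene lists with at least 9 tested genes, cell type marker lists left out, on the log2(CPM + 0.1) scale, in mouse A (circles) and mouse B (triangles); numbers of tested genes are in brackets and the dashed line marks the median of all tested genes, 0.01. Of the lists drawn, homing, MHC class II and interferon-stimulated genes lie farthest to the right and that of surrogate light chain and recombination genes farthest to the left in both mice; glycolysis has its 2 mice on opposite sides of 0.

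Macrophage, neutrophil, natural killer cell, dendritic cell and T cell markers had higher sums in each tumour than in its line. Of 20 macrophage genes, 7 had enough reads to be tested and 4 were called higher in the tumours with the block (background 13.3%). Their sum over 20 was 24.4 and 31.2 CPM in the tumours, 9.69 and 6.93 CPM in the lines and 4.78 to 13.8 CPM in the lines of other mice. *Adgre1*, encoding the macrophage antigen F4/80, was at 6.33 and 13.3 CPM in the tumours with no read in any of the 6 lines. *C1qa*, of complement C1q, was at 0.399 and 0.219 CPM and 0. The 13 neutrophil genes summed to 4.94 and 2.50 CPM in the tumours and 0.122 and 0.1499 CPM in the lines. The 10 natural killer cell genes summed to 12.9 and 7.62 CPM and 1.46 and 0.900 CPM, most of it *Prf1* (12.2 and 4.82 CPM against 1.18 and 0.712 CPM).

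The 16 T cell genes summed to 178.9 and 359.9 CPM in the tumours, 19.0 and 132 CPM in the lines and 17.2 to 106 CPM in the lines of other mice. That sum lay in *Zap70*, a kinase of T cell receptor signalling (129 and 122 CPM against 8.39 and 19.5 CPM), in *Thy1* (12.8 and 169 CPM against 3.04 and 49.6 CPM) and in *Lck* (32.7 and 62.2 CPM against 7.14 and 62.2 CPM). The defining gene *Cd3e* was at 0.549 and 0.613 CPM in the tumours and 0.0811 and 0.1499 CPM in the lines. Fibroblast genes summed to 11.97 and 50.4 CPM and 2.43 and 33.7 CPM, most of it *Sparc* in mouse B, and *Col1a1*, the main collagen of fibroblasts, was at 0.698 and 0.526 CPM against 0.608 and 2.47 CPM. The 10 dendritic cell genes, of a cell type that also bears MHC class II, summed to 6.98 and 12.7 CPM in the tumours, 2.07 and 2.92 CPM in the lines and 2.24 to 42.5 CPM in the lines of other mice. Erythroid genes summed to 8.43 and 7.14 CPM and 3.73 and 8.17 CPM. Endothelial genes summed to 55.2 and 50.4 CPM and 47.2 and 50.4 CPM. The macrophage, neutrophil, natural killer cell, dendritic cell, T cell and fibroblast sums move with the groups of genes higher in the tumours, and their part in those differences was not tested. The erythroid sum was lower in tumour B than in line B. *Lck*, *Cd3e*, *C1qa* and *Col1a1* were chosen after their values were seen.

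The recipients were female, and the Y-linked gene *Ddx3y* was at 113 and 83.01 CPM in the tumours and 159 and 67.8 CPM in the lines. *Xist*, the transcript of the inactive X chromosome, was at 0.549 and 0.219 CPM in the tumours and 0.406 and 0.450 CPM in the lines, the highest value among the 4 lines of other mice being 2249 CPM. In reads, *Xist* had 11 and 5 in the tumours and 10 and 12 in the lines. *Cdkn2a*, encoding the tumour suppressors p16 and ARF, separated the mice rather than the states, at 329 CPM in tumour B and 276 CPM in line B against 1.10 and 0.0811 CPM in tumour and line of mouse A.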

How the data were processed

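RNA-seq libraries were made by the authors from total RNA with a TruSeq RNA kit, which does not mark strand, so overlapping and antisense genes cannot be told apart. According to the methods of the study, reads were aligned and counted per gene with Rsubread; the submitters' processing notes name GRCm38 and mm10 as builds and edgeR as a tool. The values deposited are CPM, the counts of a gene scaled to a library of 1000000 reads, with no filter and no scaling between libraries beyond the total; no table of another unit was used. Low values are whole multiples of what 1 read is worth, so whole reads were recovered by a library's step (100% of values whole within a tolerance of 0.01 reads), and their sums are the depths given in the text. Of 25869 genes in the table, 25242 were matched to a symbol in RefSeq by gene ID and 14 through another table; coordinates and promoter sequences are RefSeq's, build GRCm38.p6.

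CPM were scaled by TMM (edgeR 4.0.16) and tested as log2(CPM + 0.1) with limma 3.58.1 (lmFit, eBayes with trend, two-sided, R 4.3.3) over the 12719 genes kept by filterByExpr on the recovered reads in these 4 libraries, 2 tumours against 2 lines, with Benjamini-Hochberg adjustment at 0.05. Log2 differences are on the log2(CPM + 0.1) scale and understate the change of low genes; folds are ratios of mean CPM. The fit has no block for the mouse, as planned. Each SE printed comes from this fit and is not the spread of the 2 within-mouse differences. The samples were paired by the title numbers, which name the animal, although the column names give the 2 tumours the opposite numbers. The leading V genes pair the libraries in the same way as the titles. In a check of the pairing, the difference between the 2 tumours and that between the 2 lines had a correlation of 0.597 across genes, and the median absolute log2 difference of a tumour was 0.499 from its own line and 0.591 from the other; values with the mouse as a replicate block are therefore given beside the results. Samples of a group are separate mice, 1 library each. The fits were tested on simulated counts.

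The members of the comparison and all gene lists were chosen with earlier results of these data known, so lists are described by counts and medians with no test of their own. Genes named are *Bcl2*, *Myc* and *Ighm*, the 10 called genes with the largest log2 difference in each direction (at least 5 CPM in the higher group, same direction in both mice; filled with the smallest p where fewer were called), up to 4 genes of each list by the same criteria and all called genes of lists of up to 12 genes, and the leading V genes. Some genes that this rule names are not reported here. *Ciita*, *Gbp3*, *Trim30a*, *Itga4*, *S1pr1*, *Cxcr4*, *Cd44*, *Cd79a*, *Ighd*, *Igkc*, *Nfkb1*, *Rela*, *Mcl1*, *Bcl2l11*, *Bcl2a1b*, *Vpreb1*, *Cd93*, *Hmgcs1*, *Cyp51*, *Ankrd37*, *Mki67*, *C1qa*, *Lck*, *Cd3e*, *Col1a1*, *Ddx3y* and *Xist* fall outside that rule and were chosen after their values were seen. V gene shares have 95% Wilson intervals (scipy 1.17.1). Alternatives were edgeR's quasi-likelihood test and limma-voom on the recovered reads (each with and without the block), DESeq2 1.42.0, RLE or no scaling, pseudocounts of 0.5 and 1, no filter, removal of immunoglobulin and mitochondrial genes, other sets of lines, a spread pooled over 8 lymphoma libraries, leaving out each library, and a threshold of 0.01. limma-voom with the block and the block with a pseudocount of 1 or without immunoglobulin and mitochondrial genes were added after seeing the data. The 10 fibroblast and 2 leukaemia libraries of the series were not used here.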

Additional observations from a re-analysis of the deposited data

Results flagged for a closer look

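For 5 gene lists with at least 3 tested genes the median tumour minus line difference (log2) had opposite signs in mouse A and mouse B. Each is 1 library against 1 in each mouse, and the difference between the mice was not tested. The lists were glycolysis (-0.79 in mouse A and 0.0518 in mouse B), NRF2 targets (-0.56 and 0.0790), the unfolded protein response (-0.15 and 0.0784), the BCL-2 family (0.26 and -0.0669) and fibroblast markers (0.33 and -0.73). Of the fibroblast markers 4 had enough reads to be tested. The single tested megakaryocyte gene also had opposite signs (-0.44 and 1.26).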

How the results depend on the processing

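The number of genes called depended on the test, the scaling, the filter and the lines compared. Against 42 without a block, the replicate block gave 3598, edgeR with the replicate block 2990 and limma-voom with it 3759, while edgeR and limma-voom without it, RLE scaling, no filter and a threshold of 0.01 gave 0; at an unadjusted p under 0.05 the counts were 3184 by edgeR, 3223 by limma-voom, 3290 with RLE scaling and 3965 of 18670 genes with no filter. DESeq2 gave 2100, no scaling factor 79, all 6 lymphoma lines 2579, the 4 lines of other mice 2961 and a spread pooled over 8 lymphoma libraries 1421. Leaving out any 1 library, line or tumour of either mouse, gave 0 to 0 (1917 to 2235 at an unadjusted p under 0.05), with the lone sample assumed to vary like the other group. Pseudocounts of 0.5 and 1 and removal of immunoglobulin and mitochondrial genes gave 44, 41 and 49.

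Of 115 genes named and tested, 21 had the other sign in at least 1 alternative. Against the 4 lines of other mice *Klf4* (4.44), *Eno3* (-1.10) and *Ddx3y* (9.72) were called with the opposite sign, and *Arhgap21* (0.51) and *Reln* (5.75) lost their call and had the opposite sign, as did *Reln* (3.23) against all 6 lines; these settings use other mice. With the spread pooled over 8 libraries *H2-Aa*, *H2-Ab1*, *H2-Eb1*, *H2-DMa*, *Insm1*, *Adgrg1*, *Arhgap21*, *Reln* and *Ak4* lost their call. Against all 6 lines these genes and *Il7r*, *Aatk* and *Gpr63* did so. Of 36 lists with at least 3 tested genes, 12 had the other sign in some alternative. Among them were the BCL-2 family, the germinal centre and plasma regulators, the nuclear respiratory chain and the p53 targets. Of 20 lists with a median of at least 0.5 in size, 2 changed sign in some alternative, complement and metallothionein. With the second V gene added, the heavy-chain share of the leading gene became 86.2% in tumour A, 99.3% in line A, 96.6% in tumour B and 99.8% in line B, and the kappa share 87.4%, 93.7%, 92.4% and 92.9%; the leading gene alone held 98.4% and 94.9% of heavy-chain reads in lines A and B.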
